A study of Mus musculus with 2 samples.

Results

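Transcripts of the transforming growth factor beta (TGF-beta) pathway were examined in Treg, the Foxp3-dependent regulatory T cells that hold immune responses in check, of mice with 1 or both Stat3 alleles floxed. The members were the ligand gene Tgfb1, its docking protein gene Lrrc32, the receptor genes Tgfbr1 and Tgfbr2, the Smad genes Smad2, Smad3, Smad4 and Smad7, and the repressor genes Ski and Skil. They were taken by gene symbol, through every probe set that the platform annotation pairs with that symbol alone. Of the 10 genes, 9 had such probe sets, 22 in all, among 34945 probe sets of 18193 genes. The annotation used here paired none with Lrrc32, by symbol or by Entrez identifier, so Lrrc32, whose product GARP holds latent TGF-beta on the Treg surface, was not analysed here.

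TGF-beta is made as a latent precursor that stays bound to its propeptide until it is activated. The active ligand joins a type II receptor (Tgfbr2) and a type I receptor (Tgfbr1), and the type I kinase phosphorylates Smad2 and Smad3, which enter the nucleus with Smad4. Smad7 blocks the receptors, and Ski and Skil (SnoN) hold Smad complexes in a repressed state. In T cells the pathway is known for its part in inducing Foxp3 in peripheral Treg and, together with Stat3-activating cytokines, in the differentiation of Th17 cells.

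Treg were isolated by cell sorting from the spleens and lymph nodes of females that were 6 to 8 weeks old, and each genotype gave 1 Affymetrix array. Both sample labels give the Foxp3 genotype as Cre/wtS, with Stat3 fl/wt in one sample and Stat3 fl/fl in the other; the series text writes Cre/wt in place of Cre/wtS for the fl/fl mice. The Foxp3-driven Cre is thus shared by both groups, and the fl/wt mice carry a floxed Stat3 allele as well. Foxp3 is X-linked, so in a female with a single Cre allele Cre is made only in Treg that use that X. The labels do not give the number of mice per array or whether the sort selected Cre-bearing cells.

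Values are log2 probe set levels as deposited, made with GCRMA, and differences are fl/fl minus fl/wt. A probe set that reached log2 5 in either array was called measured, which held for 16 member probe sets and for 16761 of all those with a single gene. Since each genotype has 1 array, nothing below has a replicate error or a test, and each difference is set beside those of all measured probe sets. Levels are not compared between probe sets, which differ in how well they bind. In sorted bulk cells, fewer cells of a type and less RNA per cell cannot be told apart.

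The Stat3 probe sets did not check the labels: the 3 that were measured differed by -0.083 to -0.0083, and their position with respect to the deleted exons is unknown here. Of the 6 Treg markers, 5 were measured in both arrays, among them Ctla4, Il2ra and Ikzf2, whereas Foxp3 itself did not reach log2 5 in either. Markers of other cells were also read. Of 5 myeloid markers 4 were measured, and the summed level of the list was 15.57 in fl/wt and 15.55 in fl/fl (log2). The corresponding sums were 16.32 and 16.28 for the Treg list and 16.145 and 16.165 for the T cell list. Each sum takes every probe set of its list on the linear scale, those under log2 5 too. Lists differ in their probe sets, so their sums are not strictly comparable. The myeloid signal was strong in both arrays, far above log2 5. Csf1r reached 13.99 and 14.00 (1419872_at) and Lyz2 12.59 and 12.52, whereas Itgam was under log2 5 in both. Of 5 platelet markers 1 was measured (Pf4), with summed levels of 6.35 and 6.48, and of 5 endothelial markers 1 was measured (Pecam1), with 8.11 and 8.22. Of the 4 B cell genes that had probe sets, all 4 were measured, with summed levels of 10.80 and 10.74, and of 5 CD8 and NK markers 3 were measured, with 9.99 and 10.11. The red cell list moved most: of its 4 markers 2 were measured, both lower in fl/fl, and its summed level was 7.94 in fl/wt and 7.30 in fl/fl. In it Epor, the erythropoietin receptor gene, differed by -0.86 and Alas2, the heme synthesis enzyme gene of red cells, by -0.28, while the globin gene Hba-a1 was under log2 5 in both arrays. The part of these cells in the levels below was not tested.

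The promoter windows of 3 members are shown here because Tgfb1 and Ski were the genes with 2 or more measured probe sets, all of them lower in fl/fl, and Tgfbr2 is the receptor whose probe sets split in direction. Each is the 250 bases before the annotated start, 5′ to 3′ on the gene's strand, from RefSeq on GRCm38.p6. The Tgfb1 window is chr7:25686752-25687001 (plus strand), the Ski window chr4:155222536-155222785 (minus strand) and the Tgfbr2 window chr9:116175364-116175613 (minus strand). Capitals mark GGGCGG, the core of the GC box bound by Sp1, on either strand in Tgfb1 and Ski, and CAGAC, the core of the Smad box, in Tgfbr2.
Tgfb1: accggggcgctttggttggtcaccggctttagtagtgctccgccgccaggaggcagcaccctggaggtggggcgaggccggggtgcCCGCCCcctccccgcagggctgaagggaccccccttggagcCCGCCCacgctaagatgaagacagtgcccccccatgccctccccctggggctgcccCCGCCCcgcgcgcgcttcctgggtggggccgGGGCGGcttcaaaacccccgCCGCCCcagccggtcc
Ski: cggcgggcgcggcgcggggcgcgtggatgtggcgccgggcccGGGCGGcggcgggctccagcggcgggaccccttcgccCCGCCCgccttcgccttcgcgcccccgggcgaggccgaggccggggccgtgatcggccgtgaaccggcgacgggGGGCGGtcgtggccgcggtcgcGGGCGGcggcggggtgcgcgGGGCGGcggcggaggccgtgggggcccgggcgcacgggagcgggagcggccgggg
Tgfbr2: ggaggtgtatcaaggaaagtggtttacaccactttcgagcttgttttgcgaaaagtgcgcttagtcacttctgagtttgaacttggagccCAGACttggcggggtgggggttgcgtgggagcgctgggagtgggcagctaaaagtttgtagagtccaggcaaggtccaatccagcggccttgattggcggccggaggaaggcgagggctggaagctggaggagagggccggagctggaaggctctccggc
The GC box was present 5 times in the Tgfb1 window and 5 times in the Ski window, and it is present at least once in 32.7% of the 32851 RefSeq windows of this length. G and C made up 75.2% of the Tgfb1 window and 87.6% of the Ski window, against a median of 52.4% over all windows. The counts were not adjusted for this. The Smad box was present once in Tgfbr2, 160 bases before the start, and not in the Tgfb1 or Ski windows, and it is in 42.2% of all windows. The Stat palindrome TTCNNNGAA, in 7.02% of all windows, was in none of the 6 windows that the table gives for 5 of the members (Tgfb1, Tgfbr1, Tgfbr2, Smad3 and Ski). Both strands were searched, and no match of one motif overlapped a match of another. These matches describe letters in the windows and say nothing of binding.

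No measured probe set of any member differed by 1.5-fold or more between the arrays (0 of 16), a size reached by 0.752% of all measured probe sets. That size was itself tied to level. It was reached by 118 of 4521 probe sets with a mean level from log2 5 to 8, 7 of 7410 from 8 to 11 and 0 of 4689 from 11 upward. Of the member probe sets 3, 2 and 11 lie in these ranges, so a count of 0 says little about the members. A difference of 0.1 or more on the log2 scale was seen in 5 of the 16, against 30.8% of all measured probe sets. That share too was tied to level, at 55.2%, 30.4% and 7.63% in the same ranges, so 30.8% is not matched to the members. The differences ran from -0.41 to 0.24, with 11 probe sets lower and 5 higher in fl/fl. Over all measured probe sets 51.2% were lower and 48.8% higher. The median difference was -0.040 over the member probe sets and -0.0024 over all of them. As a yardstick, probe sets that read one gene differed from each other with a pooled SD of 0.14 on the log2 scale, over 4310 genes with more than 1 measured probe set. Of the 16 member differences, 2 were larger in size than this SD. The SD pools probe sets of all levels within the same arrays, so it holds no error between arrays, sorts or mice.

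**Figure D1:**
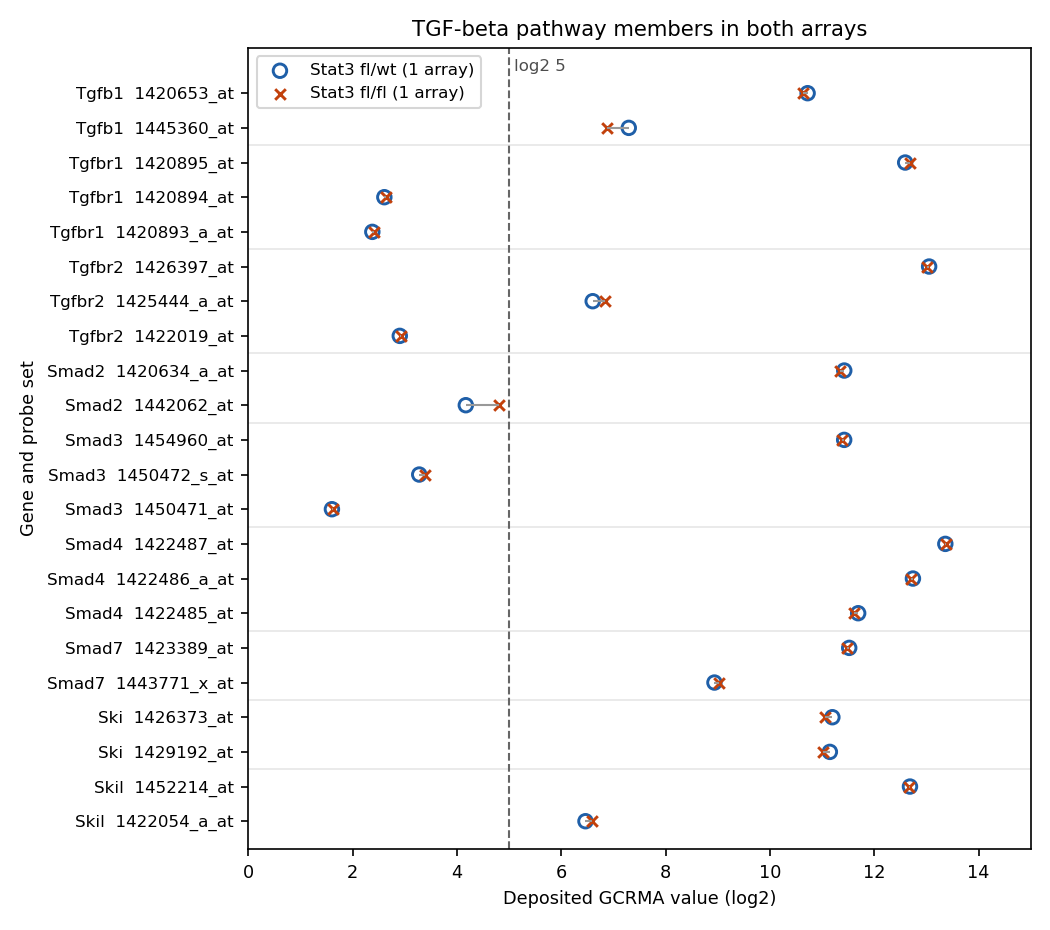
Log2 level of each of the 22 member probe sets (rows, by gene) in the Stat3 fl/wt array (circle) and the Stat3 fl/fl array (cross), with 1 array per genotype and the dashed line at log2 5. The symbols nearly coincide in most rows; the widest gaps are those of Smad2 1442062_at, which lies under log2 5 in both arrays, and Tgfb1 1445360_at.

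The ligand gene Tgfb1 was read by a pair of probe sets, both lower in fl/fl by different amounts. Probe set 1420653_at stood at 10.72 in the fl/wt array and 10.64 in the fl/fl array, which is a difference of -0.082. Probe set 1445360_at stood at 7.29 and 6.88, differing by -0.41 or 1.33-fold, the largest in size among the measured member probe sets. A difference at least that large was seen in 2.26% of all measured probe sets, but in 7.70% of those with a mean level from log2 5 to 8, where 1445360_at lies. It was the only 1 of the 16 past 1.2-fold, which 6.77% of all measured probe sets passed. For 1420653_at the corresponding shares were 37.6% of all and 38.7% of those from log2 8 to 11. The probe sets of Tgfb1 thus lay 0.33 apart in their differences, against a median of 0.097 over the 2623 genes with 2 measured probe sets.

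The receptors differed in opposite directions across probe sets. Tgfbr1, the type I receptor kinase, had 1 measured probe set, 1420895_at, at 12.59 (fl/wt) against 12.68 (fl/fl), differing by 0.084. It was one of only 2 of the 11 member probe sets with a mean level at or above log2 11 that were higher in fl/fl. Among all probe sets at that level, 11.9% differed by as much. The other 2 Tgfbr1 probe sets were under log2 5, where GCRMA values are compressed. They stood at 2.61 and 2.64 for 1420894_at and at 2.38 and 2.40 for 1420893_a_at.

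Tgfbr2, the type II receptor that binds the ligand first, had 2 measured probe sets with opposite signs. Probe set 1426397_at gave 13.05 (fl/wt) and 13.02 (fl/fl), differing by -0.034, which 49.4% of the probe sets at or above log2 11 matched or exceeded. Probe set 1425444_a_at read 6.60 and 6.84, differing by 0.24, which 24.0% of the probe sets from log2 5 to 8 matched or exceeded. The suffix a marks probes shared by alternative transcripts of the gene. The third, 1422019_at, was under log2 5 in both arrays, at 2.90 and 2.92.

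The receptor-activated Smads were each read by 1 measured probe set, and both were slightly lower in fl/fl. For Smad2, 1420634_a_at gave 11.42 (fl/wt) and 11.33 (fl/fl), differing by -0.089. For Smad3, 1454960_at read 11.42 and 11.38, differing by -0.040. At this level 10.3% of all measured probe sets differed by as much as Smad2 and 41.7% by as much as Smad3. A second Smad2 probe set, 1442062_at, was under log2 5 in both arrays, at 4.17 and 4.80. It is the probe set that lies just outside the threshold of log2 5, and its gap of 0.63, in the direction opposite to 1420634_a_at, is counted only when the threshold is set lower. With the threshold at log2 4 it was the single member probe set past 1.5-fold, among 1.24% of all probe sets, and with none it was again the single one, among 1.12%. Smad3 had 2 further probe sets under log2 5, 1450472_s_at at 3.28 and 3.40 and 1450471_at at 1.60 and 1.62.

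Smad4, the partner that the receptor-activated Smads share, had 3 measured probe sets, all above log2 11. Probe set 1422487_at gave 13.36 (fl/wt) and 13.38 (fl/fl) (difference 0.016), 1422486_a_at read 12.74 and 12.70 (-0.041), and 1422485_at read 11.69 and 11.61 (-0.081). The differences spanned 0.097, less than the median span of 0.16 over the 1051 genes with 3 measured probe sets, and they did not share a sign. Among those 1051 genes, 25.8% had all 3 differences in one direction.

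Smad7, the inhibitory Smad that TGF-beta itself induces, also had probe sets of opposite sign. Probe set 1423389_at gave 11.52 (fl/wt) and 11.47 (fl/fl), differing by -0.048. Probe set 1443771_x_at, whose suffix marks probes that can bind other transcripts, read 8.94 and 9.03, differing by 0.094. Differences at least as large were seen in 34.2% and 33.1% of the probe sets at their levels.

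The repressor genes differed from each other in how their probe sets behaved. Ski had 2 measured probe sets, 1426373_at at 11.20 (fl/wt) against 11.06 (fl/fl) (difference -0.14) and 1429192_at at 11.15 and 11.02 (-0.13). Both were lower in fl/fl by nearly the same amount, 0.0074 apart. At or above log2 11, 2.35% of all measured probe sets differed by as much as the first and 3.31% by as much as the second, and 7.63% differed by 0.1 or more. The Ski probe sets, with mean levels of 11.13 and 11.08, lie at the low edge of that range, so these shares may make them look rarer than they are at their own level. From log2 8 to 11, 30.4% differed by 0.1 or more. Over all levels the shares for the Ski pair were 20.6% and 22.2%. In fold terms the fl/fl levels were 0.909 and 0.914 of those in fl/wt. Skil, which encodes the related protein SnoN and is itself induced by TGF-beta, had probe sets of opposite sign. Its 1452214_at gave 12.68 (fl/wt) and 12.66 (fl/fl), differing by -0.019, and its 1422054_a_at read 6.46 and 6.58, differing by 0.12. Differences as large were seen in 70.5% and 50.0% of the probe sets at their levels.

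**Figure D2:**
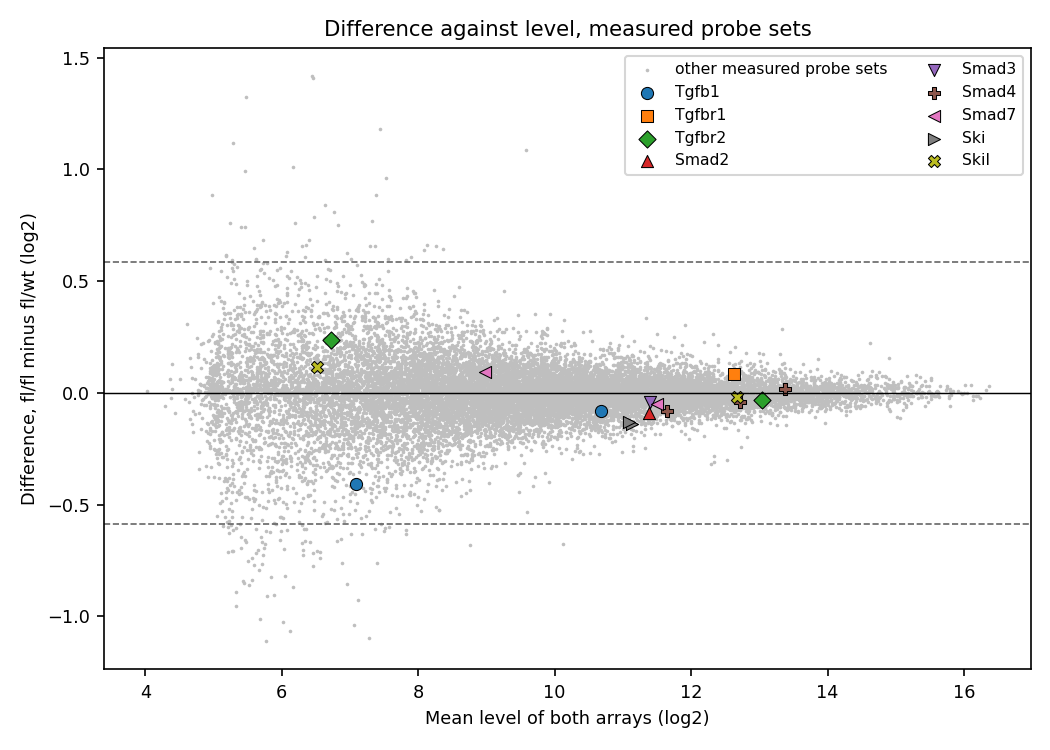
Difference between the arrays (fl/fl minus fl/wt, log2) against the mean level of both arrays (log2) for all 16761 measured probe sets (grey dots) and the 16 member probe sets (coloured symbols by gene), with dashed lines at 1.5-fold. All members lie inside the dashed lines, the Ski pair lies near the lower edge of the grey cloud at its level, and Tgfb1 1445360_at lies lowest, where the cloud is wide.

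Probe sets of one gene often disagreed in direction. Of the 6 members with 2 or more measured probe sets, 2 (Tgfb1 and Ski) had all of them lower in fl/fl, none had all of them higher, and 4 (Tgfbr2, Smad4, Smad7 and Skil) had both directions. Over all 2623 genes with 2 measured probe sets, 49.9% had both in one direction and 26.4% had both lower; of the 5 such members 2 had both lower and none both higher. The size of the differences followed the level. Among all measured probe sets 0.1 or more was reached by 55.2% from log2 5 to 8, by 30.4% from 8 to 11 and by 7.63% from 11 upward. Among the member probe sets it was reached by 3 of 3, 0 of 2 and 2 of 11 in these ranges, the last being the Ski pair. At or above log2 11, 9 of the 11 member probe sets were lower in fl/fl, against 53.6% of all measured probe sets there. These 11 come from 8 genes and share both arrays, so they are not independent observations.

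Other genes of the pathway, listed by role, differed by less than 0.1 in 69.7% of their measured probe sets, against 69.2% of all. Of 67 listed genes 64 had a probe set and 47 were measured, by 89 probe sets. Of these probe sets 47 were higher and 42 lower in fl/fl, with a median of 0.0067. Over all measured probe sets 48.8% were higher and 51.2% lower, the shares to set beside each split by role below. Of the 89, 1 probe set was past 1.5-fold, against 0.752% of all measured probe sets. That probe set reads Acvr1c, a type I receptor for activin and Nodal, at 5.03 (fl/wt) against 5.78 (fl/fl), differing by 0.74 just above the threshold for being measured.

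Among genes of latency and activation, 5 of 13 were measured, by 9 probe sets, 7 of them higher, against 48.8% of all measured probe sets. Of these 7, 4 read the single gene Nrp1, so they are not separate observations. Itgb8, the integrin chain that with Itgav releases TGF-beta from its latent complex, gave 9.00 (fl/wt) and 9.20 (fl/fl), differing by 0.20. Itgav itself differed by -0.17 (1421198_at, near log2 5) and -0.067 (1452784_at). Furin, the protease that cleaves the TGF-beta precursor, differed by 0.082. Nrp1, a Treg surface receptor that can bind TGF-beta, was higher in all 4 of its measured probe sets, by 0.016 to 0.077, and Nrros, which tethers latent TGF-beta on myeloid cells, by 0.029. The alternative ligand genes Tgfb2 and Tgfb3 and the latent binding protein genes Ltbp1 to Ltbp4 were under log2 5 in both arrays.

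Receptors of the wider superfamily had 8 of 11 genes measured, by 9 probe sets, 6 higher and 3 lower. After Acvr1c, the largest differences were those of the activin receptor gene Acvr2a (0.49 and 0.26, from probe sets between log2 5 and 6) and of Acvrl1, a type I receptor best known from endothelium (-0.17). Tgfbr3, the co-receptor betaglycan, differed by 0.054. Of the other Smads, Smad1 and Smad5, which act for bone morphogenetic proteins, were measured and differed by 0.051 and -0.019, and by 0.045 and 0.19. Smad6 and Smad9 were under log2 5.

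Regulators of Smad proteins had 17 of 18 genes measured, by 39 probe sets, with 18 higher and 21 lower and a median of -0.017. The phosphatase gene Ppm1a, which acts on Smad2 and Smad3, had 6 measured probe sets from -0.38 to 0.17. The ubiquitin ligase gene Wwp1 had 3, from -0.27 to 0.097, and the gene of the receptor-associated protein Strap had 3, from -0.25 to -0.017. The corepressor gene Tgif1 gave 9.21 (fl/wt) and 8.96 (fl/fl), differing by -0.25. The feedback inhibitor Pmepa1, a TGF-beta target, differed by 0.032, -0.0014 and 0.13. Of 7 nuclear cofactor genes 4 were measured, by 4 higher and 4 lower probe sets, and the acetyltransferase gene Ep300 (0.16) and the scaffold gene Sin3a (-0.18, 0.14 and -0.019) differed most, followed by the acetyltransferase gene Crebbp (0.068, 0.0067 and -0.018).

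Probe sets of genes known to respond to TGF-beta were split in direction. The list does not separate genes that TGF-beta induces from genes that it represses, so the split says nothing of pathway output. Of 14 listed, 11 were measured, by 20 probe sets, 9 higher and 11 lower, with a median of -0.022. Itgae, which encodes the integrin chain CD103 and is induced by TGF-beta in T cells, gave 12.57 (fl/wt) and 12.59 (fl/fl) in one probe set and 11.27 and 11.24 in the other, differences of 0.019 and -0.028. The cell cycle inhibitor gene Cdkn2b had the largest difference in this list, 0.54, from 5.01 in fl/wt to 5.55 in fl/fl. Its fl/wt value is just above the threshold for being measured. At a mean level from log2 5 to 8, 55.2% of all measured probe sets differed by 0.1 or more. Runx3 differed by -0.20, and Cdkn1a by -0.17 and 0.080. Junb (0.0042), Klf10 (-0.019), Id3 (-0.032) and the 4 probe sets of Tgfbi (-0.036 to 0.046) each lay within 0.05 of 0.

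**Figure D3:**
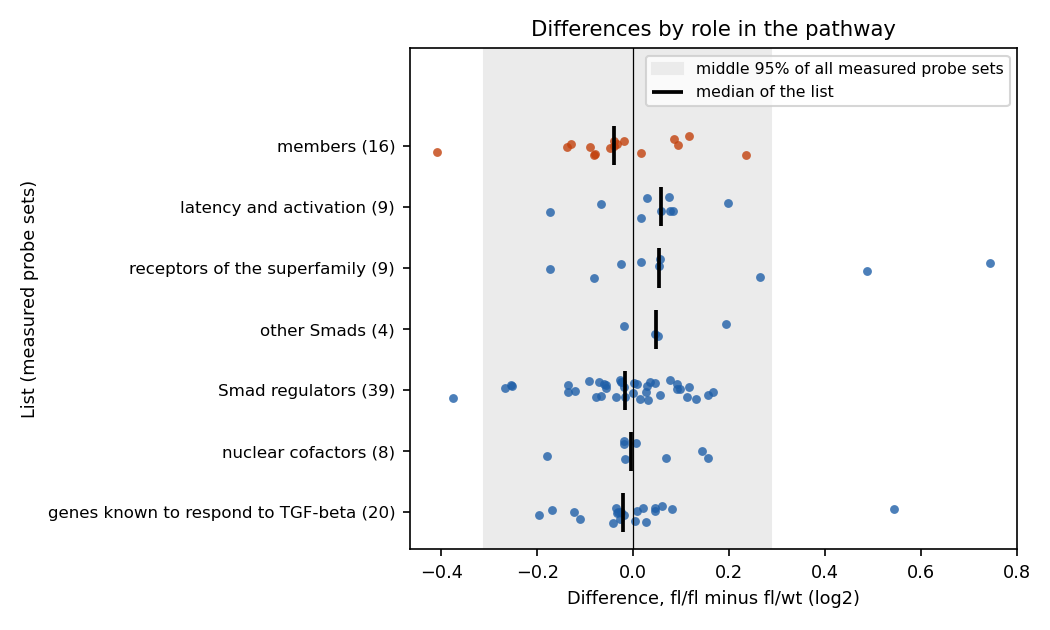
Difference between the arrays (fl/fl minus fl/wt, log2) for each measured probe set of the members (orange) and of the other pathway genes by role (blue), with the number of probe sets in brackets, the median of each list as a black bar and the middle 95% of all measured probe sets shaded (-0.31 to 0.29). The list medians lie between -0.040 and 0.057, and the points outside the shading are Tgfb1 1445360_at, Ppm1a 1451943_a_at, Cdkn2b, Acvr2a 1437382_at and Acvr1c. Each of these points has a mean level from log2 5 to 8, where 55.2% of all measured probe sets differed by 0.1 or more. The shading pools all levels, so it is narrow for probe sets in that range.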

How the data were processed

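Per the labels' protocols, total RNA was extracted with Trizol from sorted Treg, and cRNA carrying biotin was read on 1 Affymetrix array per genotype. The deposited values cover 45101 probe sets on a log2 scale, judged from their range (0.53 to 16.91, medians 3.47 and 3.50). They are credited to GCRMA by the submitters' processing notes, with no version or settings, and it is not known here if more arrays entered the normalisation. GCRMA leaves dim probe sets with compressed values, so those under log2 5 were set to 5, and probe sets under 5 in both arrays were left out of counts and medians. Genes came from the platform annotation; 64 control probe sets and those with several or no symbols were left out. The values come with no genome build. The number of arrays limits the precision, and no test was possible. Every fold is 2 raised to the log2 difference.

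All 10 members, the role lists and the markers were chosen with earlier results of these data known. The text names every member, the 3 genes with the largest difference in each role list, and others whose role helps; where a list has fewer measured genes, all are named. Alternatives were other floors, 32 added on the linear scale, centring, quantile normalisation, loess (statsmodels 0.14.6, span 0.3), leaving out probe sets with a shared suffix, and 1 probe set per gene. The procedure was tested on simulated data. Promoter windows came from RefSeq on GRCm38.p6, for 5 members.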

Additional observations from a re-analysis of the deposited data

How the results depend on the processing

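The count of member probe sets past 1.5-fold (0 of 16) was 1 with the floor and filter at log2 4 (Smad2 1442062_at; 1.24% of all probe sets passed at that floor) and 1 with no floor or filter (the same probe set, against 1.12% of all). It was 1 with a 1.2-fold threshold (Tgfb1 1445360_at, against 6.77%) and 0 with a 2-fold one, and 0 under each of the other 7 alternatives. The median over the members (-0.040) was -0.0032 with no floor or filter, where the 6 dim probe sets enter and 11 were higher and 11 lower, against 29.3% lower of all probe sets. Over all 9 alternatives it ran from -0.048 to -0.0032, and that of the other pathway genes from 0.0041 to 0.019. No measured member probe set changed sign in 112 values over 7 alternatives, and none moved by more than the SD of 0.14 between probe sets of one gene. Floors at log2 4 or 6, or no floor, could not change these values, since all 16 probe sets lie above log2 6 in both arrays. Only 2 of the 16 differences exceed that SD in size, so the comparison with the SD could hardly fail. Scalings moved the median of all measured probe sets by at most 0.013. No paired analysis was possible because each genotype has 1 array. With 1 array per genotype, differences from sorting, labelling or hybridisation cannot be told apart from genotype.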
